A study of Mus musculus with 47 samples.

Results

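C2C12 iCdh23 is a derivative of C2C12, an immortalized mouse myoblast line, that carries a Cdh23 transgene behind the doxycycline (dox)-responsive TRE3G promoter. The comparison described here is that of C2C12 iCdh23 after 48 h with dox against 48 h with vehicle. Its members are 6 of the 47 RNA-seq libraries of the series, 3 biological replicates with dox and 3 without, and they were chosen by their line, time and treatment labels. The transgene was delivered by PiggyBac transposition and selected with puromycin, and the sources do not say that the line is a single clone. Both groups had been moved to low-serum differentiation medium for 48 h, and dox (1 µg/mL) or vehicle was given at that switch. All 6 libraries therefore share the integrated vector, the selection and the serum withdrawal, and they differ by label only in dox. The series also holds C2C12 iMcam, which carries inducible Mcam, and C2C12 iMyoD1, which carries inducible MyoD1, each with 3 libraries ±dox at 48 h. No dox-treated C2C12 without a transgene was analysed here, so a response to dox itself and a response to the transgene cannot be told apart within C2C12 iCdh23.

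Myoblasts leave the cell cycle when serum is withdrawn, and the bHLH factors MyoD1 and myogenin (Myog), which bind E-boxes together with E proteins, switch on the genes of the contractile apparatus. The cells then align, adhere and fuse into multinucleated myotubes with the help of the membrane proteins myomaker (Mymk) and myomixer (Mymx). Cadherins are calcium-dependent adhesion molecules, of which M-cadherin (Cdh15) and N-cadherin (Cdh2) are the ones best known in myoblasts. Cdh23 is an atypical, very long cadherin that is best known from inner ear hair cells, where it pairs with protocadherin-15 to form the tip link and is anchored by harmonin (Ush1c) and myosin VIIa (Myo7a).

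Promoters of 4 genes are shown because the results turn on them: Myog and the skeletal muscle actin gene Acta1 stand for the muscle program that was lost with dox, and the adhesion genes Cadm4 and Mcam stand for the genes that rose. Each is the stretch of 250 bases before the RefSeq transcription start (GRCm38.p6), written 5′ to 3′ on the strand of the gene, with every E-box (CANNTG, which reads the same on both strands) in capitals. The Myog stretch is chr1:134289754-134290003 (plus strand), the Acta1 stretch is chr8:123894776-123895025 (minus strand), the Cadm4 stretch is chr7:24481773-24482022 (plus strand) and the Mcam stretch is chr9:44134408-44134657 (plus strand). The Myog and Mcam stretches run past the GENCODE starts of these genes given further on (134289989 and 44134469), since the annotations differ.
Myog: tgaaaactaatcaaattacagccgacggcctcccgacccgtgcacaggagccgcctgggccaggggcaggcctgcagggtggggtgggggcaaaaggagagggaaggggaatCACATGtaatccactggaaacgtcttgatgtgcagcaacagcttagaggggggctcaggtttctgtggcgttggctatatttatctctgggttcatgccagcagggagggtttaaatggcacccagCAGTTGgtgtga
Acta1: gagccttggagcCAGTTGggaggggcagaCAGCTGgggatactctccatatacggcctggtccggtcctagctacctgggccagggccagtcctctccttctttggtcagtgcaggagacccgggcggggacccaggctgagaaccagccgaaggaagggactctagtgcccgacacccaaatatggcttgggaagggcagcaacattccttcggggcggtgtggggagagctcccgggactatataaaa
Cadm4: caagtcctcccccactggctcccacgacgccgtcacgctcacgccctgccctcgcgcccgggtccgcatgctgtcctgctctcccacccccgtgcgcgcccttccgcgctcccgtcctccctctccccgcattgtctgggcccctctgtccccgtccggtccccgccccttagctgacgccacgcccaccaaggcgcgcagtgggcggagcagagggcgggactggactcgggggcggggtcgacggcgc
Mcam: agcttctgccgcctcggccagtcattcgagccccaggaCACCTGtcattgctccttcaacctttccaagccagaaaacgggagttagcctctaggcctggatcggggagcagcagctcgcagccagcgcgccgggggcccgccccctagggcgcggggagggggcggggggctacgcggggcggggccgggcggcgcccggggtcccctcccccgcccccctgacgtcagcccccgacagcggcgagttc
Counted back from the start, the E-boxes begin at -138 and -12 in Myog, at -238 and -221 in Acta1 and at -212 in Mcam, and Cadm4 has no E-box in this window. The second Acta1 match is CAGCTG and the Mcam match is CACCTG, which are versions of CANNTG. Of all 32851 promoter stretches of this length in the table, 66.2% held CANNTG, 13.0% held CAGCTG and 17.2% held CACCTG. The 10 genes that fell most with dox among those averaging 5 CPM or more (named further on) were matched to 21 starts of 9 genes, of which 100% held CANNTG, 42.9% CAGCTG and 33.3% CACCTG. The 10 that rose most under the same minimum were matched to 14 starts of 7 genes, of which 64.3% held CANNTG, 7.14% CAGCTG and 42.9% CACCTG. Starts of the same gene overlap, so these shares are descriptions of the letters and were not tested.

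Cdh23 RNA was high in C2C12 iCdh23 whether or not dox was given. In CPM, that is counts scaled to a common library size with TMM factors, the gene (chr10:60302748-60696490, minus strand, mm10) was at 369, 343 and 444 in the 3 vehicle libraries. It was at 566, 416 and 464 in the 3 dox libraries. The groups overlapped, since the lowest dox library lay below the highest vehicle library. The means were 385 ± 52.4 and 482 ± 76.6 CPM (SD, n = 3 each). In edgeR the log2 fold change was 0.32 with a standard error (SE) of 0.152, and the adjusted p was 0.102. An exact two-sided permutation test gave p = 0.2, where 0.1 is the smallest p that 3 against 3 libraries allow. Scaled by library totals alone, the means were 378 ± 47.2 and 593 ± 94.6 CPM, a ratio of 1.57 with an exact permutation p of 0.1 and n = 3 each, and the edgeR log2 fold change was 0.65 with an adjusted p of 0.00496. Without vehicle replicate 3 the TMM-scaled fold change was 0.43 with an edgeR adjusted p of 0.0269, which stayed under the 2-fold threshold.

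The other lines held far less Cdh23 RNA. Vehicle-treated C2C12 iMcam had 7.64 ± 1.83 CPM and vehicle-treated C2C12 iMyoD1 had 9.39 ± 0.859 CPM (SD, n = 3 each). With dox these rose to 51.2 ± 6.66 CPM in C2C12 iMcam (log2 fold change 2.76, edgeR adjusted p = 0.00015) and to 19.5 ± 1.22 CPM in C2C12 iMyoD1 (log2 fold change 1.05, adjusted p = 8.36e-06). On the log2 scale the dox effect on Cdh23 was thus smaller in C2C12 iCdh23 than in C2C12 iMcam, with a difference of -2.42 (SE 0.261, adjusted p = 0.000391 for the interaction). That scale is relative to the vehicle level, which was far higher in C2C12 iCdh23. In CPM the mean went from 385 to 482 in C2C12 iCdh23 and from 7.64 to 51.2 in C2C12 iMcam. Against C2C12 iMyoD1 the difference was -0.72 (SE 0.183, adjusted p = 0.00873), which was under the 2-fold threshold. Whole-gene counts do not separate the transgene from the endogenous locus. Total Cdh23 RNA overlapped between the groups of C2C12 iCdh23 under TMM scaling and did not overlap under scaling by library totals alone. Below, dox stands for the label dox treatment and vehicle for the label untreated.

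Single transcript models of Cdh23 moved in opposite directions. Cdh23-209, a model of 67 exons and 10295 bases that the annotation types as retained intron, held 210, 179 and 233 CPM in the vehicle libraries. The dox libraries held 163, 71.2 and 81.3 CPM of it, all below the vehicle libraries (207 ± 27.1 against 105 ± 50.3 CPM, ratio 0.507, exact permutation p = 0.1, n = 3 each). All other models together held 159, 163 and 211 CPM with vehicle and 404, 345 and 383 CPM with dox, all above the vehicle libraries (178 ± 28.9 against 377 ± 29.9 CPM, ratio 2.12, exact permutation p = 0.1, n = 3 each). Both p-values are the smallest that the design allows. Cdh23-209 was picked because it held the most Cdh23 counts with vehicle, a choice that favors a fall with dox. No conclusion is drawn from either p-value. Cdh23-209 received no counts in the C2C12 iMcam libraries and at most 6 counts in any C2C12 iMyoD1 library at 48 h. The protein-coding models Cdh23-203 and Cdh23-205 went from means of 4.0 to 68.8 and from 41.6 to 141 CPM. The protein-coding model Cdh23-204 went from 87.9 to 70.7 CPM. Near-identical models share reads, so the split between them is salmon's estimate and is less certain than the sum.

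**Figure D1:**
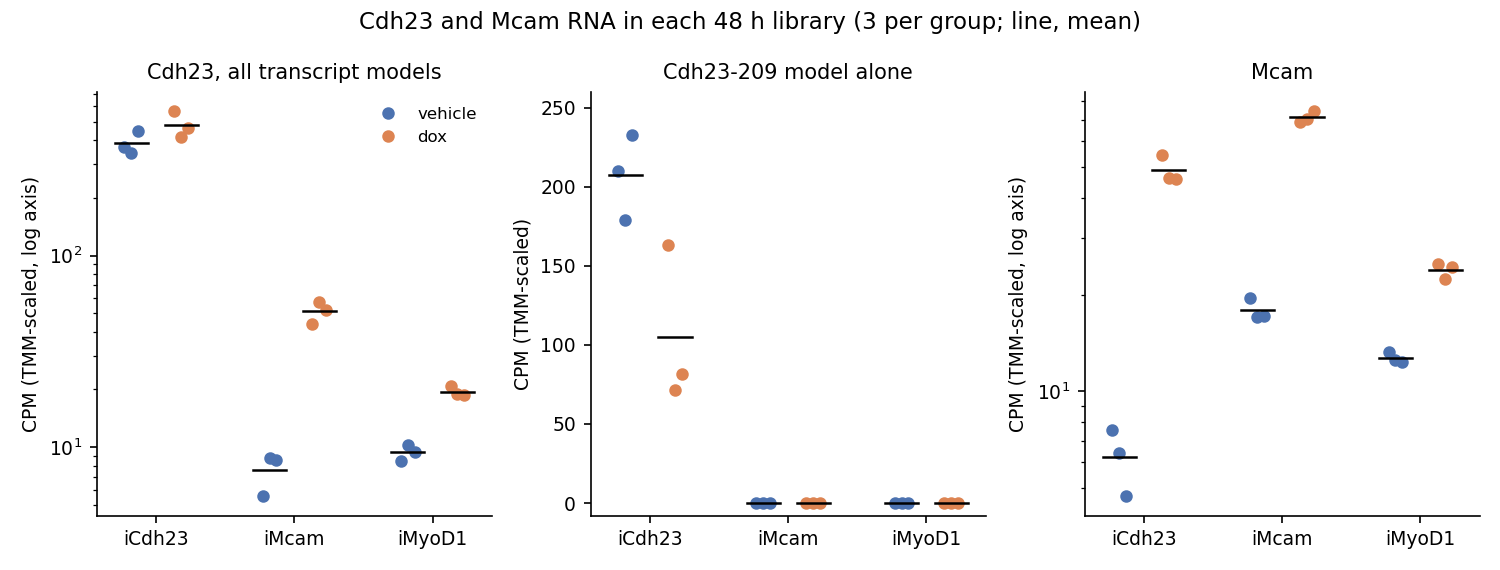
Cdh23 (all models), the Cdh23-209 model alone and Mcam in CPM for each of the 3 libraries per group at 48 h, by line (points, libraries; black lines, means; the first and last panels have log axes). C2C12 iCdh23 sits at 343 to 566 CPM of Cdh23 with or without dox, Cdh23-209 is seen almost solely in that line, and Mcam lies higher with dox in all 3 lines.

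The C2C12 iCdh23 libraries held between 19546087 and 25110433 estimated counts, and no pair of replicates was a copy of another. Vehicle libraries expressed the myoblast markers Myod1, Myf5, Des, Cdh15 and Itga7 and the myotube markers Myog, Myh3, Acta1, Tnnt3, Ckm and Mymk, as the label of a differentiating myoblast line requires. The 5 myoblast markers summed to between 2310 and 2880 CPM with vehicle and to between 376 and 457 CPM with dox. The 6 myotube markers summed to between 4780 and 7700 CPM with vehicle and to between 31.8 and 113 CPM with dox. In whole cultures, fewer cells of a type and less RNA per cell cannot be told apart. Most markers of other cell types were at or near 0. The adipocyte markers Adipoq, Fabp4 and Plin1, the neuron and hair cell markers Rbfox3, Snap25, Atoh1 and Pou4f3, and the leukocyte markers Ptprc, Adgre1 and Cd3e had at most 3 counts in any library. The endothelial markers Pecam1, Kdr and Cdh5 had at most 4, and the bone and cartilage markers Sp7, Bglap, Acan and Col2a1 had at most 14. The other markers of these sets were lower with dox: Pparg (-2.43), Tubb3 (-2.35) and Runx2, which went from 60.4 ± 5.66 to 26.2 ± 5.57 CPM (-1.21, and -0.88, under 2-fold, with scaling by totals alone). Dpt, Pdgfra and Pi16, the fibroblast markers, summed to between 65.7 and 164 CPM with vehicle and to between 9.7 and 11.1 CPM with dox. Vehicle replicate 3 held the most RNA of many muscle genes among the vehicle libraries, and dox replicate 3 the most among the dox libraries. The TMM factors were between 1.228 and 1.232 with dox and between 0.9657 and 0.9983 with vehicle, and scaling by totals alone moved the median of all genes up by 0.33 (log2).

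Which genes changed with dox? Of 14227 genes tested, 1854 were higher with dox and 2421 lower at an edgeR adjusted p under 0.05 and a change of more than 2-fold, which are 13.0% and 17.0% of the genes tested. The remaining 9952 genes were not called. These shares are the background for each list count below. A listed gene at the floor in one group (at most 3 counts in each library) entered the test through the other group alone and had to differ, which holds for 9 listed entries called higher and 10 called lower. Changes of more than 4-fold were called for 626 higher and 1315 lower genes, and changes of more than 16-fold for 157 higher and 513 lower genes. The larger changes were thus more often losses. Under scaling by totals alone the calls were 2977 higher and 1877 lower, so the balance between rises and falls depended on the scaling.

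**Figure D2:**
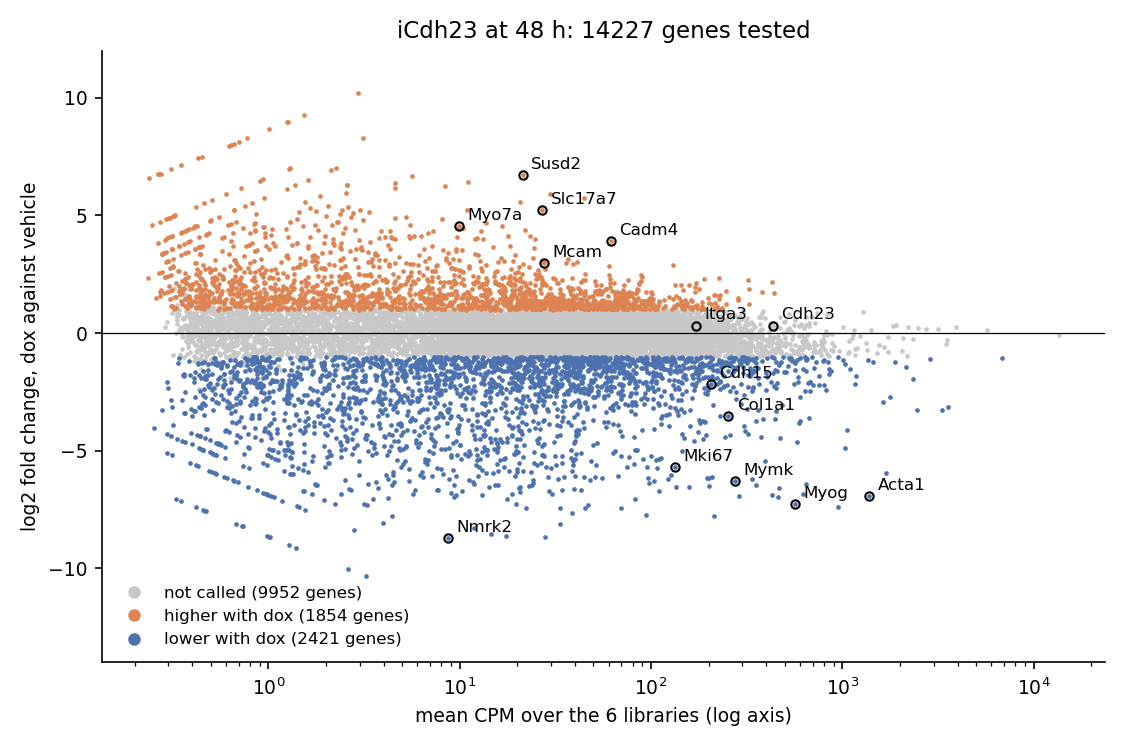
Log2 fold change (dox against vehicle) of each of the 14227 genes tested in C2C12 iCdh23 against its mean CPM over the 6 libraries (log axis), with called genes in color and 14 genes circled. Changes of more than 16-fold (4 log2 units) are more often falls (513 genes) than rises (157 genes), and Cdh23 itself lies near 0 at 0.32.

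Several factors that drive myogenesis fell with dox. Myog, the bHLH factor that commits myoblasts to terminal differentiation (chr1:134289989-134292548), was at 811, 1090 and 1460 CPM with vehicle and at 3.24, 3.62 and 15.1 CPM with dox. The log2 fold change was -7.26 (SE 0.705, edgeR adjusted p = 9.26e-05), and every dox library lay below every vehicle library. Myod1, which acts upstream of Myog (chr7:46376474-46379099), was at 198, 217 and 328 CPM with vehicle and at 44, 28.1 and 51.5 CPM with dox (log2 fold change -2.59, SE 0.28, adjusted p = 0.000156). The loss of Myod1 RNA was partial where that of Myog was almost complete. Mef2c, a MADS-box partner of the bHLH factors, was at 1.99, 3.73 and 34.1 CPM with vehicle and at 0.291, 0.162 and 0.392 CPM with dox (log2 fold change -5.56, adjusted p = 0.00629), and vehicle replicate 3 stood far above the other vehicle libraries. Pitx3, a homeobox factor of differentiating muscle, fell by 3.21 on the log2 scale (adjusted p = 2.89e-05). Of 16 myogenic regulators tested from a list of 19, 8 fell, 0 rose (1 rose without dox replicate 3) and 8 were not called, with a median log2 fold change of -0.98 where the median of all genes was 0. The E proteins Tcf3, Tcf4 and Tcf12 were not called, at log2 fold changes of 0.29, 0.08 and -0.8. Of 15 progenitor regulators tested (Pax, Id, Msc and related genes), 11 fell and 0 rose (1 rose with scaling by library totals alone), where 17.0% of all genes tested were called lower. The falls included Spry1 at -4.5 and Bhlhe40 at -4.41. Twist2, a bHLH factor that represses muscle differentiation, was at 10.5, 8.33 and 8.2 CPM with vehicle and at 17.1, 14.2 and 15.9 CPM with dox (log2 fold change 0.8, SE 0.141, adjusted p = 0.00175), so every dox library was higher, but the change stayed under 2-fold.

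For comparison across the series, Myog RNA lay between 4.77 and 5.21 CPM in C2C12 iMyoD1 without dox at 24 h and between 1670 and 1690 CPM at 48 h. Dox-treated C2C12 iCdh23 at 48 h, at 3.24 to 15.1 CPM, was nearer to the 24 h values. Myod1 RNA was between 136 and 142 CPM at 24 h in C2C12 iMyoD1 without dox, above the 28.1 to 51.5 CPM of dox-treated C2C12 iCdh23. These levels come from separately deposited tables and were not tested.

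The fusogens fell with Myog. Mymk, the myomaker gene (chr2:27061636-27072179), was at 460, 566 and 608 CPM with vehicle and at 3.87, 3.98 and 13.1 CPM with dox (log2 fold change -6.29, SE 0.529, adjusted p = 4.82e-05). Mymx, the myomixer gene, was at 64.3, 106 and 157 CPM with vehicle and at 0.582, 1.1 and 2.78 CPM with dox (log2 fold change -6.18, SE 0.55, adjusted p = 6.21e-05). No dox library came near a vehicle library for either gene. Tmem182, a membrane protein of muscle cells, fell by 7.45 on the log2 scale (adjusted p = 0.000236), from between 64.9 and 253 CPM to between 0.0832 and 1.89 CPM. Among 13 fusion genes tested, 8 fell and 0 rose, including Cav3 (-5.84), Elmo1 (-3.84), Dysf (-1.99) and Myof (-1.42). The general actin regulators Rac1 and Cdc42, at log2 fold changes of 0.03 and -0.27, were not called.

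Genes of the sarcomere were lost in all its parts. Acta1 (chr8:123891769-123894751), the main actin of skeletal muscle, was at 2090, 2780 and 3330 CPM with vehicle and at 12.1, 13 and 42.5 CPM with dox (log2 fold change -6.93, SE 0.603, adjusted p = 5.63e-05). All 17 thick filament genes tested fell, with a median log2 fold change of -5.59, among them the myosin-binding protein Mybph (-6.97), the light chain Mylpf (-6.6) and the slow myosin heavy chain Myh7 (-6.54). Of 21 thin filament genes tested, 19 fell and 0 rose (median -6.2), with the leiomodins Lmod3 (-7.44) and Lmod2 (-7.3), which nucleate actin filaments, at the low end. All 29 Z-disc and M-band genes tested fell (median -5.8). Csrp3, a Z-disc LIM protein, was at 25.7, 42.9 and 98.1 CPM with vehicle and at 0.0416, 0.0647 and 0.285 CPM with dox. Xirp1, an actin-binding repair protein, was at 63.4, 73 and 95.5 CPM with vehicle and at 0.166, 0.42 and 0.535 CPM with dox. A panel of 22 myogenic genes that the study compiled fell in full, 22 of 22 with a median of -6.06. The panel is the study's own, made of genes known for myogenic differentiation, and its direction is not taken as independent evidence.

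The machinery around the sarcomere followed, with exceptions. Of 22 triad and excitation-contraction coupling genes tested, 19 fell and 0 rose (median -4.38). The calcium buffer Casq2 (-6.54) and the calcium channel subunit Cacna1s (-6.26) were among them. Of 14 neuromuscular junction genes, 10 fell, including the embryonic acetylcholine receptor subunits Chrng (-6.21), Chrnd (-5.03) and Chrna1 (-4.4). The exception was Agrn, the proteoglycan agrin that clusters these receptors, which rose from 113, 108 and 115 CPM to 614, 452 and 531 CPM (log2 fold change 2.25, SE 0.132, adjusted p = 1.16e-05). In the dystrophin complex 5 of 15 genes fell and 1 rose, beside 17.0% lower and 13.0% higher of all genes tested. The syntrophin Sntb1 was at -5.07, and the gene that rose was the dystrobrevin Dtnb (log2 fold change 2.04, adjusted p = 9.23e-06). Of 16 genes of muscle metabolism 12 fell, with the oxygen carrier Mb at -7.73. Slc2a4, the insulin-regulated glucose transporter, rose (1.44, adjusted p = 0.0276), but the call was lost without vehicle replicate 2 (1.18) or without dox replicate 1, 2 or 3 (1.45, 1.46 and 1.42).

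**Figure D3:**
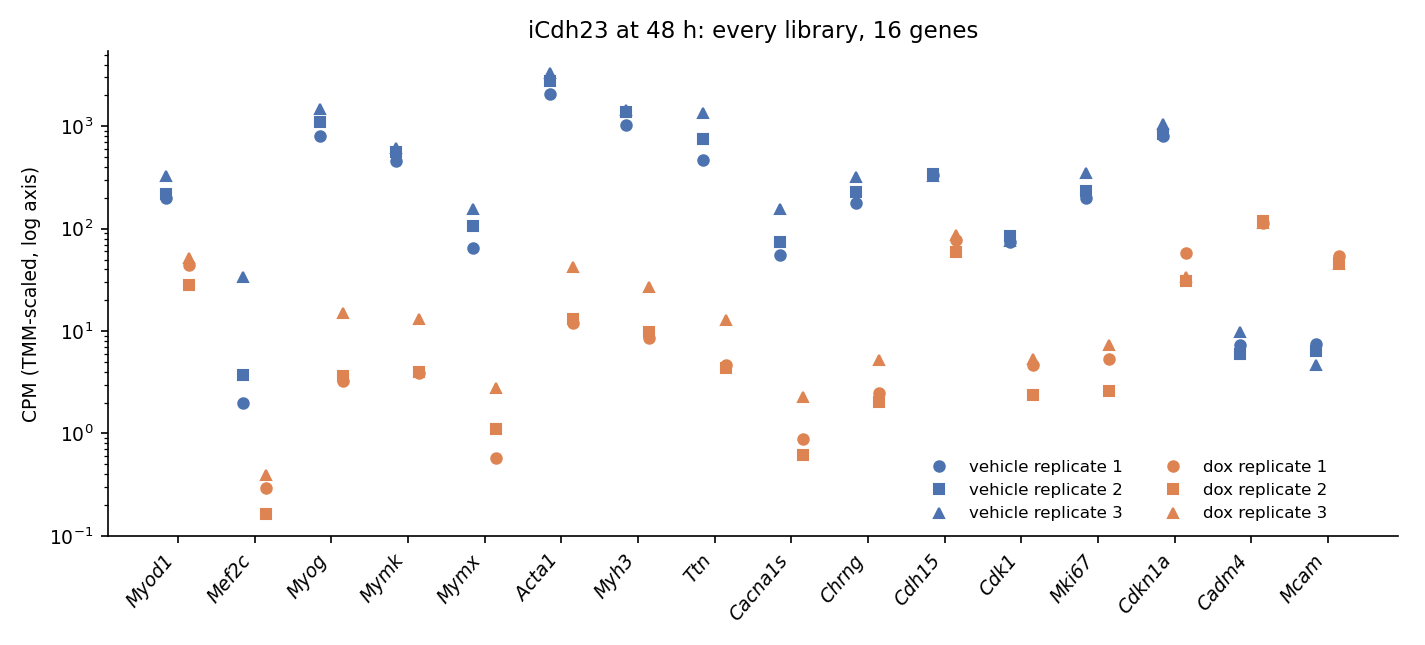
CPM (log axis) of 16 genes in each C2C12 iCdh23 library (blue, vehicle; orange, dox; the marker shape gives the replicate). For Myog, Mymk, Mymx and Acta1 the dox libraries lie far below every vehicle library, with dox replicate 3 the highest of the 3, while Cadm4 and Mcam show the opposite order of the groups.

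Genes of the cell cycle fell together with those of differentiation. All 26 mitosis genes tested fell, with a median log2 fold change of -4.81. Mki67, the proliferation marker (chr7:135689784-135716361), was at 198, 234 and 351 CPM with vehicle and at 5.36, 2.62 and 7.24 CPM with dox (log2 fold change -5.69, SE 0.416, adjusted p = 2.59e-05). The kinase gene Bub1 (-5.84) and cyclin B1, Ccnb1 (-5.52), fell as far. Of 29 replication genes 28 fell (median -2.31), with E2f2 (-5.61), Rrm2 (-5.31) and Mcm5 (-4.37) at the low end. The exception Prim1, a primase subunit, had a log2 fold change of -0.96 with an adjusted p of 0.000929, just under the 2-fold threshold, and it passed without vehicle replicate 3 (-1.09) or dox replicate 3 (-1.07).

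Some inhibitors of the cycle fell too. Cdkn1a, the p21 gene that myoblasts raise on leaving the cycle (chr17:29090976-29100727), was at 801, 850 and 1060 CPM with vehicle and at 57.3, 30.7 and 33.7 CPM with dox (log2 fold change -4.48, SE 0.28, adjusted p = 1.39e-05). Cdkn1c, the p57 gene, was at 152, 181 and 175 CPM with vehicle and at 8.44, 9.76 and 11 CPM with dox (-4.12, adjusted p = 4.56e-06). Among 16 genes for CDK inhibitors, related brakes and the D cyclins, which promote the cycle, 8 fell, 0 rose and 8 were not called. Mki67 and Cdkn1a were thus low in the same libraries.

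The 5 adhesion molecules that the study followed up did not move alike. Cadm4, an immunoglobulin-type adhesion molecule of synapses and glia (chr7:24482023-24504539), was at 7.33, 5.98 and 9.7 CPM with vehicle and at 113, 120 and 113 CPM with dox (log2 fold change 3.9, SE 0.174, adjusted p = 6.34e-06). Mcam, the adhesion molecule CD146 (chr9:44134469-44142727), was at 7.55, 6.41 and 4.7 CPM with vehicle and at 54.5, 46 and 45.7 CPM with dox (2.97, SE 0.179, adjusted p = 1.26e-05). No vehicle library reached the level of a dox library for either gene. Itga3, an integrin that binds laminins, was at 195, 145 and 118 CPM with vehicle and at 243, 161 and 168 CPM with dox, with overlapping groups (0.32, SE 0.222, adjusted p = 0.244). Cdh15, the M-cadherin gene, was at 335, 340 and 327 CPM with vehicle and at 77.8, 59.4 and 87.6 CPM with dox (-2.16, SE 0.149, adjusted p = 2.07e-05).

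Cadherins split in both directions. Of 15 tested from a list of 37, 5 rose and 8 fell, beside 13.0% and 17.0% of all genes tested. The type II cadherin Cdh24 went from between 7.8 and 8.26 CPM to between 58.2 and 68.1 CPM (log2 fold change 2.99, adjusted p = 4.56e-06). Clstn3, a synaptic calsyntenin, rose by 2.82 and the giant cadherin Fat2 by 3.28. The falls included Dchs2 (-2.99), Cdh18 (-2.96), the GPI-anchored Cdh13 (-2.81), N-cadherin Cdh2 (-2.75) and Cdh11 (-2.51). The cadherins best known in myoblasts, Cdh15 and Cdh2, were thus among those that fell. Of 6 catenins and linkers tested, Jup, plakoglobin, fell (-1.38, adjusted p = 7.08e-05), where 17.0% of all genes tested were called lower, and the β-catenin gene Ctnnb1 was at -0.06 and was not called. None of the 6 rose, and 1 rose under scaling by totals alone or without vehicle replicate 2, dox replicate 2 or dox replicate 3.

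Several genes whose proteins work with Cdh23 in hair cells were higher with dox, and genes of the same list also rose in the other lines. Myo7a, the motor that anchors the tip link (chr7:98051060-98119524), was at 0.972, 0.909 and 0.555 CPM with vehicle and at 20.1, 18 and 19.1 CPM with dox (log2 fold change 4.55, SE 0.202, adjusted p = 6.34e-06). Espn, which bundles actin in stereocilia, was at 0.928, 0.431 and 0.598 CPM with vehicle and at 9.11, 7.89 and 6.92 CPM with dox (3.59, adjusted p = 3.81e-05). Cib2 (2.52) and Tmie (2.25), components of the transduction channel complex, were also called. Ush1c, harmonin, was at or under 3 counts in every vehicle library and reached 0.642 to 0.873 CPM with dox, at least 5.5-fold higher. Clrn1, a tetraspan protein, fell (-2.8, adjusted p = 3.89e-05). Of 18 partner genes listed, 10 were tested, of which 5 rose and 1 fell, where 13.0% of all genes were called higher. Ush1c passed the filter on low counts through the dox libraries alone, so nothing is read from this count. The median log2 fold change was 1.54, or 0.83 without the filter. In C2C12 iMcam 5 of 9 tested partner genes rose (median 1.11), where 6.99% of all genes tested were called higher. In C2C12 iMyoD1 4 of 9 rose (median 0.92), where that share was 5.93%. Pcdh15, the binding partner of Cdh23, and the channel genes Tmc1 and Tmc2 were among the 8 that were not tested for low counts, and the hair cell factors Atoh1 and Pou4f3 had no counts.

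Other adhesion families were mixed or lower. Of 27 immunoglobulin-type adhesion genes tested, 9 rose (14 under scaling by totals alone) and 6 fell, beside 13.0% and 17.0% of all genes tested. The 9 include Nfasc and Cntn2, both at the floor with vehicle, and 7 rose without them. The median was 0.67, or 0.19 without the filter on low counts. Nfasc, neurofascin of axons, had at most 3 counts in every vehicle library and reached 5.53, 7.4 and 5.89 CPM with dox, at least 46.5-fold higher. The nectins Nectin1 (1.16), Nectin2 (1.59) and Nectin4 (1.51) rose while Nectin3 (-1.28) fell. Ncam1 (-2.38) and Vcam1 (-2.17), both known on myoblasts, fell. Of 19 integrin subunits, 10 fell and 1 rose (2 without vehicle replicate 1 or under scaling by totals alone). Itga7, the muscle laminin receptor, went from 718, 797 and 1080 CPM to 114, 87.9 and 107 CPM (-3.08, SE 0.192, adjusted p = 1.39e-05), and Itgb6 fell by 6.97 on the log2 scale (adjusted p = 4.88e-06). Itgb7, a leukocyte integrin chain, was the exception, at 0.309, 0 and 0 CPM with vehicle and 1.58 to 2 CPM with dox (4.06, adjusted p = 0.00272).

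Extracellular matrix genes fell in most cases. Of 22 collagen genes tested, 16 fell and 1 rose, with a median log2 fold change of -2.22. Without vehicle replicate 3 or dox replicate 2, or under scaling by totals alone, 2 rose. The largest losses were in the basement membrane zone collagen Col15a1 (-6.79), the fibril-associated Col14a1 (-6.39) and Col12a1 (-5.44). Col8a2 rose from 4.46, 2.92 and 10.1 CPM to 25.9, 26.2 and 24.1 CPM (2.11, adjusted p = 0.0024). Of 36 other matrix genes, 25 fell and 3 rose, with the fibril-binding proteoglycan Fmod (-7.25), periostin Postn (-5.12) and the elastic-fibre protein Fbln5 (-4.97) lowest. Lamb2, a laminin chain of synaptic basement membrane, rose from 166, 122 and 127 CPM to 612, 494 and 434 CPM (1.89, adjusted p = 7.08e-05). Mmp3, with at most 3 counts per vehicle library, was at least 13.8-fold higher with dox. The small rise of Mmp9 (1.78, adjusted p = 0.0405) lost its call in DESeq2 and without vehicle replicate 2 or 3 or dox replicate 1, 2 or 3. Fibroblast marker genes showed the same direction, with 8 of 9 tested lower (median -2.57).

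Lists of signaling targets gave mixed counts. Among 15 Wnt pathway genes tested, 5 rose and 7 fell, beside 13.0% and 17.0% of all genes tested. The feedback genes Axin2 (2.12, from between 1.77 and 2.65 CPM to between 7.32 and 11.2 CPM), Rnf43 and Lgr5 (1.81) were higher, while the secreted Wnt modulators Sfrp2 (-4.59) and Dkk2 (-3.66) and the targets Ccnd1 (-3.03) and Myc (-2.68) were lower. Rnf43 had at most 3 counts in every vehicle library and was at least 4.55-fold higher, and 4 genes rose without it. Of 19 Notch pathway genes, 9 fell, among them the target genes Heyl (-5.61), Hes1 (-4.62) and Hey1 (-4.02). Another 2 rose (4 without vehicle replicate 3 or under scaling by totals alone). The 2 were Mfng, a glycosyltransferase of Notch receptors, which went from 0.133, 0.191 and 0.0855 CPM to 4.28, 5.27 and 4.28 CPM (5.04, adjusted p = 1.32e-05), and the ligand Dll4, which was at the floor with vehicle and at least 8.03-fold higher with dox. A share of 2 of 19 is near the 13.0% of all genes called higher.

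Growth factor genes were mostly lower. In the IGF axis 8 of 13 genes fell, with H19 (-5.97) and Igf2 (-4.14), neighbors in an imprinted domain, among the lowest, and Irs2 rose (1.2, adjusted p = 0.00111). Igf2 was at 68.5, 112 and 211 CPM with vehicle and at 5.53, 5.92 and 10.7 CPM with dox. In the TGF-β and BMP list 12 of 23 genes fell, with the antagonists Fst (-5.86) and Grem1 (-3.51) and the ligand Tgfb3 (-3.01) leading, and Gdf11 rose (2.49, adjusted p = 3.24e-05). Without vehicle replicate 1 or dox replicate 3, or under scaling by totals alone, 2 genes of that list rose. Follistatin, the product of Fst, binds activins and Gdf11 itself. Of 16 YAP targets 7 fell and 1 rose (2 under scaling by totals alone), beside 17.0% lower and 13.0% higher of all genes tested. Ankrd1 (-4.4) and Ccn2 (-3.23) were lower and Crim1 (1.78) was higher. Of 18 SRF and smooth-muscle-type genes 10 fell and 2 rose, the rises being near the share over all genes. Acta2, smooth muscle actin, went from 2030, 2330 and 1590 CPM to 63.5, 47.5 and 90.8 CPM (-4.88, SE 0.286, adjusted p = 1.15e-05), and the intermediate filament gene Vim fell by 2.92.

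Interferon response genes moved in both directions. Of 25 tested from a list of 28, 13 rose and 2 fell (median log2 fold change 1.05), where 13.0% of all genes tested were called higher and 17.0% lower. Without Oas1a and Oas2, which were at the floor with vehicle, 11 rose. Irf7, a transcription factor of the response, was at 1.46, 1.53 and 0.684 CPM with vehicle and at 24.7, 24.8 and 24.2 CPM with dox (4.33, SE 0.246, adjusted p = 1.07e-05). The MHC class I genes H2-K1 (1.74) and H2-D1 (1.5), the proteasome subunit Psmb9 (2.63) and the protease Usp18 (3.12) rose. The antiviral genes Oas1a and Oas2 had at most 3 counts in every vehicle library and were at least 7.97-fold and 4.46-fold higher. Against them, Ifit2 (-2.25) and Rsad2 (-1.64), which are also induced by interferon, fell, and Isg15 (0.29) was not called. Members of the list therefore did not move as a block.

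Part of the stress and cytokine genes fell. Of 20 targets of the stress factor ATF4, 13 fell, 0 rose and 7 were not called (median -2.17). Without vehicle replicate 3 the median was -0.49 and 8 fell, and 8 fell without dox replicate 1, 2 or 3 or with the replicate block. The largest falls were those of the hormone gene Fgf21 (-8.11), Gdf15 (-4.01, with no adjusted p from DESeq2) and the cystine transporter Slc7a11 (-3.92). Fgf21 was at 17.8, 39.3 and 144 CPM with vehicle and at 0.0832, 0.323 and 0.285 CPM with dox, and vehicle replicate 3 was the highest of the 6. The ATF4 targets summed to 1260, 1460 and 5640 CPM with vehicle and to 831, 775 and 790 CPM with dox, so the same vehicle library stood apart in the sum. Of the 13 protein-coding mitochondrial genes 1 fell and 0 rose (median 0.19). That gene was mt-Nd1 (-1.08, adjusted p = 0.00199), whose call was lost without vehicle replicate 3 (-0.98), without dox replicate 1 (-0.94) and under scaling by totals alone (-0.75). Of 17 chemokine and inflammation genes 14 fell, among them the alarmin Il33 (-5.9) and its receptor Il1rl1, which had no counts with dox and was at least 17.9-fold lower. Of 20 immediate-early genes 7 fell, 12 were not called and 1 rose, the latter being Fos (1.34, adjusted p = 0.000329).

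**Figure D4:**
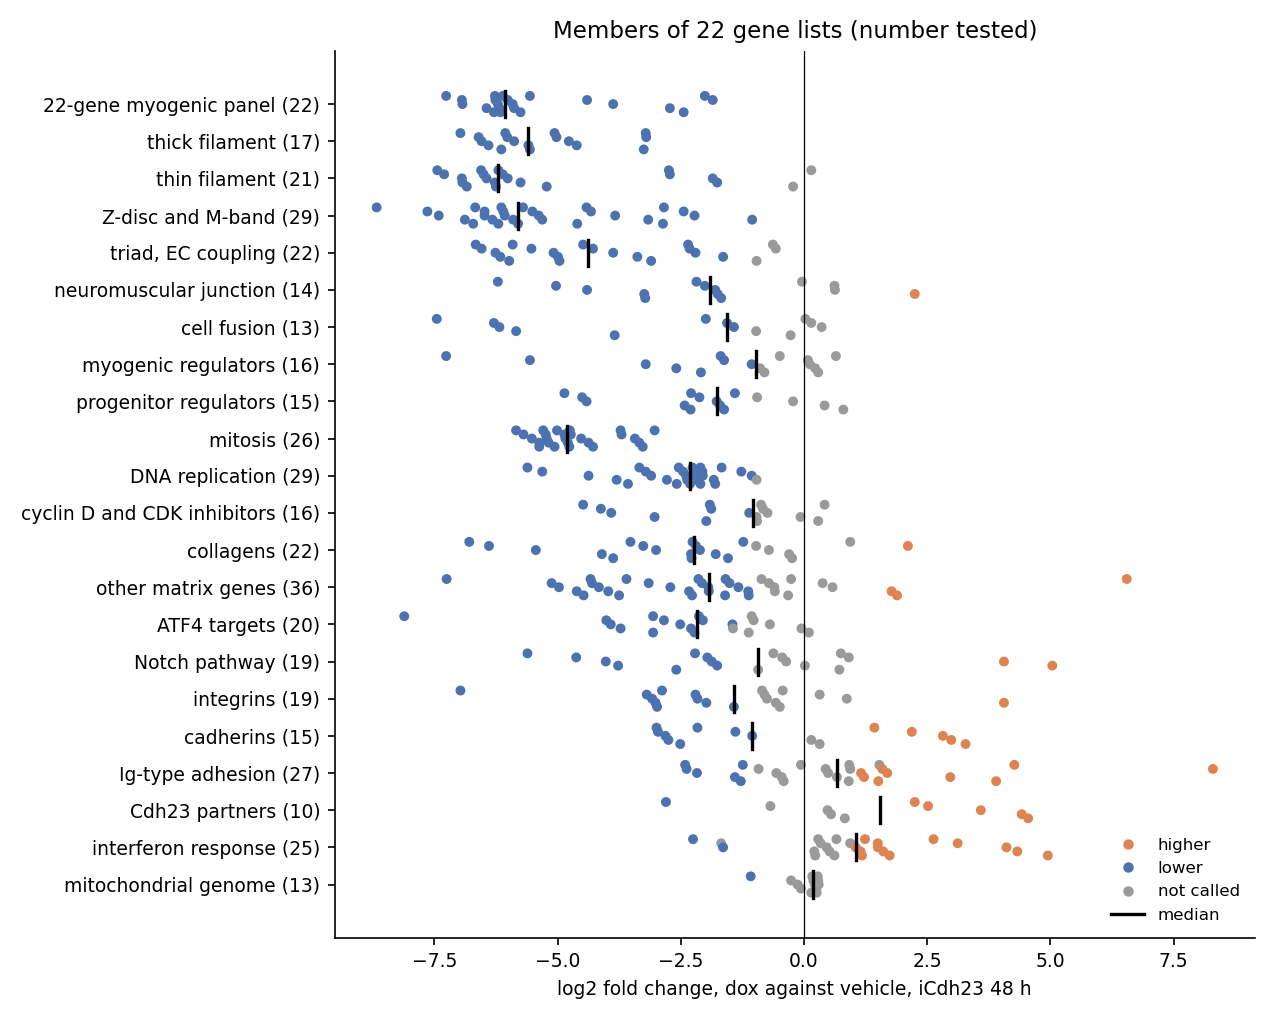
Log2 fold change of each tested member of 22 gene lists in C2C12 iCdh23, dox against vehicle (points, genes; color, call; black lines, list medians; number tested in parentheses). Sarcomere and mitosis lists sit at medians of -4.81 to -6.2, while the Cdh23 partners and interferon lists have medians of 1.54 and 1.05.

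Of the genes that averaged 5 CPM or more over the 6 libraries and whose groups did not overlap, the 10 with the largest rises were Susd2, Cgn, Epas1, Hlf, Hap1, Atp1b2, Cyfip2, Slc17a7, Slc12a5 and Cntfr. Susd2, a sushi domain membrane protein (chr10:75636706-75644008), was at 0.53, 0.239 and 0.427 CPM with vehicle and at 48.9, 40.5 and 38 CPM with dox (log2 fold change 6.7, SE 0.231, adjusted p = 4.56e-06). Cgn, the tight junction protein cingulin, was at 0.0442, 0.0479 and 0.214 CPM with vehicle and at 10.6, 11.5 and 11.6 CPM with dox (6.68). Epas1, the hypoxia factor HIF-2α, was at 0.486, 0.144 and 0.128 CPM with vehicle and at 29.4, 17.9 and 18.6 CPM with dox (6.4). All 3 were close to absent with vehicle. Hlf, a PAR bZIP transcription factor, rose by 6.27, and Hap1, the huntingtin-associated protein, rose by 5.92, from between 0.812 and 1.24 CPM to between 57.9 and 59.1 CPM.

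Several of these genes are best known from neurons. Slc17a7, the vesicular glutamate transporter VGLUT1 (chr7:45163949-45176142), was at 1.81, 0.814 and 1.54 CPM with vehicle and at 57.9, 50.4 and 50 CPM with dox (5.23, SE 0.235, adjusted p = 6.34e-06). Slc12a5, the neuronal chloride transporter KCC2, was at 0.442, 0.67 and 0.598 CPM with vehicle and at 18.3, 22.5 and 23.4 CPM with dox (5.22). Cyfip2 (5.59), a regulator of actin through the WAVE complex, Atp1b2 (5.73), a sodium pump subunit of glia, and Cntfr (4.93), the receptor of ciliary neurotrophic factor, rose as well. Of 5 tested genes from a list of 12 neural, glial and hair cell markers, Syp (2.93), Elavl3 and Myo7a were higher and Tubb3 was lower (-2.35). A further gene of the list was lower without vehicle replicate 1 or without any single dox replicate. Elavl3 had at most 3 counts per vehicle library and was at least 4.0-fold higher. The list of 12 summed to between 24.5 and 45.6 CPM with vehicle and to between 35.2 and 37.3 CPM with dox, which overlap, and Rbfox3, Snap25, Atoh1 and Pou4f3 had at most 1 count in any library.

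Under the same minimum of 5 CPM, the 10 genes with the largest falls were Nmrk2, Csrp3, Aspn, Arpp21, Dmp1, Fgf21, Cilp, Mb, Xirp1 and Tmem182. Nmrk2, the muscle nicotinamide riboside kinase (chr10:81198170-81202051), was at 16.6, 20.1 and 15.5 CPM with vehicle and at 0, 0 and 0.107 CPM with dox, at least 159-fold lower. Aspn, the matrix protein asporin, was at 26.1, 39.1 and 39.3 CPM with vehicle and at 0.0832, 0.0647 and 0.107 CPM with dox, at least 318-fold lower against a floor of 3 counts per library. Arpp21 (at least 264-fold lower) and Dmp1, a bone matrix phosphoprotein (at least 216-fold lower), were at the same floor with dox. Cilp, a cartilage matrix protein, fell from 219, 287 and 761 CPM to 1.25, 1.97 and 2.46 CPM (-7.79, adjusted p = 3.91e-05). Mb fell from 57.6, 115 and 390 CPM to 0.291, 0.776 and 1.53 CPM (-7.73, adjusted p = 0.000289). Csrp3, Mb, Xirp1 and Nmrk2 are genes of muscle, and Aspn, Dmp1 and Cilp belong to the matrix.

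How much of this response was shared with the other inducible lines? With the same test, dox raised 960 genes and lowered 1353 in C2C12 iMcam, 6.99% and 9.85% of the 13730 tested. In C2C12 iMyoD1 at 48 h it raised 823 and lowered 1174, 5.93% and 8.46% of the 13871 tested. Of the genes higher in C2C12 iCdh23, 834 were also higher in C2C12 iMcam, which is 45.0% of the C2C12 iCdh23 list and 86.9% of the C2C12 iMcam list. Of the lower genes, 1261 were shared, 52.1% and 93.2% of the respective lists. With C2C12 iMyoD1, 562 higher genes (30.3% and 68.3%) and 930 lower genes (38.4% and 79.2%) were shared. In all 3 lines 454 genes were higher and 780 lower. Calls in the opposite direction were found for 1 of the genes lower in C2C12 iCdh23 against C2C12 iMcam, and for 9 of the higher and 21 of the lower genes against C2C12 iMyoD1. In C2C12 iCdh23, 903 higher and 989 lower genes were called in neither of the other lines. Of the 1854 higher genes, 1567 were tested in C2C12 iMcam, 1539 of them with the same sign, and 1445 in C2C12 iMyoD1, 1348 with the same sign. Of the 2421 lower genes, 2242 of 2312 tested in C2C12 iMcam and 2068 of 2333 tested in C2C12 iMyoD1 had the same sign. The 3 comparisons share no libraries.

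The size of the dox effect differed between lines, and this was tested as an interaction. Against C2C12 iMcam the effect was higher in C2C12 iCdh23 for 148 genes (1.02% of 14552) and lower for 796 (5.47%). Of those 796 genes, 769 were called lower in C2C12 iCdh23 and 718 had the same sign in both lines with the larger change in C2C12 iCdh23. Against C2C12 iMyoD1 the effect was higher for 628 genes (4.24% of 14825) and lower for 1794 (12.1%), of which 1203 had the same sign and the larger change in C2C12 iCdh23 and 432 the opposite sign. Without dox replicate 2 of C2C12 iCdh23, the sum of 944 differences from C2C12 iMcam was 615.

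Myog fell by 7.26 in C2C12 iCdh23, by 3.06 in C2C12 iMcam and by 1.5 in C2C12 iMyoD1 on the log2 scale. In C2C12 iMcam it lay between 607 and 1180 CPM with vehicle and between 69 and 161 CPM with dox, and the difference between the lines was -4.18 (SE 0.768, adjusted p = 0.00606). In C2C12 iMyoD1 it lay between 1670 and 1690 CPM with vehicle and between 553 and 681 CPM with dox, a difference of -5.75 (SE 0.617, adjusted p = 1.52e-05). Dox-treated C2C12 iCdh23 thus held less Myog RNA than any 48 h dox library of C2C12 iMcam or C2C12 iMyoD1. Mymk, at 310, 412 and 582 CPM with vehicle and 47.1, 48.3 and 114 CPM with dox in C2C12 iMcam, differed by -3.65 (SE 0.657, adjusted p = 0.00544). Mymx differed by -3.58 from C2C12 iMcam (adjusted p = 0.0147). The panel of 22 myogenic genes had medians of -6.06, -2.62 and -1.23 in the 3 lines, and 18 of 22 members differed from C2C12 iMcam and 22 of 22 from C2C12 iMyoD1. The 26 mitosis genes had medians of -4.81, -3.01 and -1.79, and 20 and 26 of them differed.

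The adhesion genes differed between lines to unequal extents. Cadm4 rose by 3.9, 3.27 and 3.28 on the log2 scale in C2C12 iCdh23, C2C12 iMcam and C2C12 iMyoD1, and neither difference passed the threshold (0.65, SE 0.197, adjusted p = 0.0571, and 0.63, SE 0.223, adjusted p = 0.0417, under 2-fold). Mcam rose by 2.97 in C2C12 iCdh23, and by 2.02 in C2C12 iMcam, where it is also the transgene (0.97 more, adjusted p = 0.0102, under 2-fold), and was at 0.91, under 2-fold, in C2C12 iMyoD1 (2.07 more in C2C12 iCdh23, SE 0.195, adjusted p = 5.32e-06). Cdh15 was at -0.01 in C2C12 iMyoD1 (adjusted p = 0.911), and the difference was -2.14 (SE 0.16, adjusted p = 8.95e-07). Itga3, an integrin subunit, was at 0.32, 0.81 and 1.43 in the same order of lines, and the difference from C2C12 iMyoD1 was -1.1 (SE 0.247, adjusted p = 0.00401). Susd2 rose in all 3 lines, by 6.7, 5.57 and 5.3.

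Some genes outside the muscle program had another dox effect in C2C12 iCdh23 than in the other lines. Hap1 rose by 1.93 more than in C2C12 iMcam (adjusted p = 0.00292) and by 3.28 more than in C2C12 iMyoD1. Myo7a rose by 2.2 more than in C2C12 iMcam (SE 0.299, adjusted p = 0.00118), where it went from between 0.668 and 1.0 CPM to between 4.22 and 5.06 CPM, and by 3.55 more than in C2C12 iMyoD1. Cyfip2 rose by 5.12 more than in C2C12 iMyoD1 (SE 0.381, adjusted p = 8.56e-07), where it was not called. Nptx1, a synaptic pentraxin, fell in C2C12 iMcam (-1.18) and C2C12 iMyoD1 (-1.7) and was at 52.2, 36.2 and 34.4 CPM with vehicle and 66.7, 68.5 and 78.9 CPM with dox in C2C12 iCdh23 (0.8, under 2-fold, and 1.13, over 2-fold, with scaling by totals alone), a difference of 2.0 from C2C12 iMcam. Col14a1 differed by -5.36 from C2C12 iMcam (SE 0.585, adjusted p = 0.000391), where it fell from between 13.4 and 16.7 CPM to between 5.01 and 10.1 CPM. Among the 25 interferon genes the difference from C2C12 iMcam was called higher for 0 and lower for 1, where 1.02% and 5.47% of all genes tested were called.

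**Figure D5:**
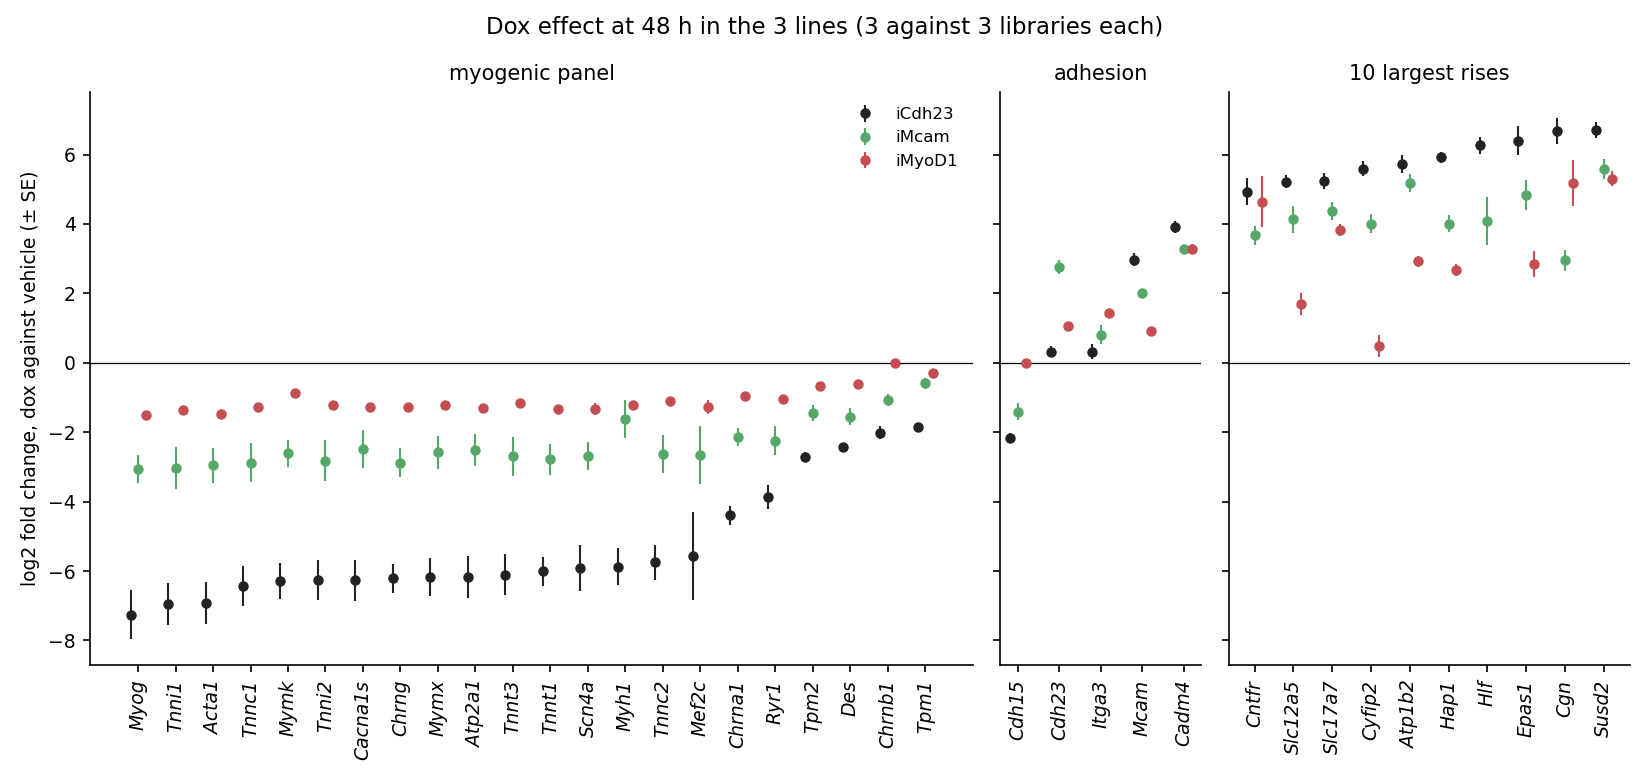
Log2 fold change (dox against vehicle at 48 h, ± SE, 3 against 3 libraries per line) of the 22 myogenic panel genes, the 5 adhesion genes and the 10 genes with the largest rises (average of 5 CPM or more) in C2C12 iCdh23 (black), C2C12 iMcam (green) and C2C12 iMyoD1 (red). The myogenic genes lie lowest in C2C12 iCdh23, at a median of -6.06, whereas Cadm4 lies between 3.27 and 3.9 in all 3 lines and Cdh23 is lowest in its own line at 0.32.

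Did the vehicle libraries of C2C12 iCdh23, in which Cdh23 RNA was already high, differ from those of C2C12 iMcam? At an edgeR adjusted p under 0.05 and over 2-fold, 20 genes were higher and 28 lower, 0.146% and 0.204% of the 13700 tested. The replicate numbers were taken to pair these libraries, although those numbered 2 were not each other's closest match (residual correlation 0.118). With the number as a block 261 genes were called, 113 higher and 148 lower. Cdh23 was the gene with the smallest adjusted p (log2 fold change 5.65, SE 0.227, adjusted p = 0.000283). Mcam was lower in C2C12 iCdh23 (-1.53, adjusted p = 0.0321), at 6.22 ± 1.44 against 17.9 ± 1.44 CPM (SD, n = 3 each). Trdn, which encodes triadin of the muscle triad, was higher in C2C12 iCdh23 (2.73, SE 0.333, adjusted p = 0.0321), at 14.1 ± 3.98 against 2.08 ± 0.84 CPM. Myog (0.4, adjusted p = 0.636), Mymk (0.32, adjusted p = 0.635), Myod1 (0.16, adjusted p = 0.807) and Cdh15 (0.28, adjusted p = 0.523) were not called. With the block their adjusted p were 0.075, 0.168, 0.557 and 0.238 in the same order, at log2 fold changes of 0.42, 0.35, 0.13 and 0.29. Other muscle genes passed the test with the block alone, among them Csrp3 (1.29 higher in C2C12 iCdh23, adjusted p = 0.00164), Mb (1.21, adjusted p = 0.00229), Lmod3 (1.07, adjusted p = 0.00228) and Art1 (1.36, adjusted p = 0.0402). The count of 48 fell to 9 and 8 without C2C12 iMcam vehicle replicate 1 or 2, to 17 and 8 without C2C12 iCdh23 vehicle replicate 1 or 2, and to 31 without C2C12 iCdh23 vehicle replicate 3.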

How the data were processed

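RNA-seq libraries of C2C12 iCdh23 (6 libraries, 48 h ±dox) were compared, beside the 48 h libraries of C2C12 iMcam and C2C12 iMyoD1. The authors sequenced poly(A)-selected RNA, ran nf-core/rnaseq with salmon and deposited its estimated counts per transcript (mm10 per the labels), not scaled to depth or length. The annotation release and strand setting are not given in the sources used here. Between 33.08% and 35.98% of values per library were not whole.

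Estimated counts of 109617 transcripts were summed over 45706 gene IDs and rounded to whole numbers. GENCODE vM21 gave symbols and positions for 45143 IDs, and RefSeq (GRCm38.p6) gave the promoters. Each comparison used its own groups in edgeR 4.0.16 (R 4.3.3; limma 3.58.1): filterByExpr, TMM scaling, its quasi-likelihood test, and p-values adjusted by Benjamini-Hochberg over all genes tested. Genes were called at an adjusted p under 0.05 and more than 2-fold. Differences between lines were interaction terms. The SE given is the size of the log2 fold change divided by the square root of the test's F statistic. Where no library of a group had more than 3 counts of a gene, the group was held to be at the floor, and the fold is a lower bound that covers counting error only. Single values were tested by exact permutation (scipy 1.17.1). The edgeR pair and interaction tests and the DESeq2 pair test were tested on simulated data. Rises and falls were balanced there, so the scaling of unequal changes was not checked. The study's own DESeq2 design had condition alone, and DESeq2 1.42.0 was an alternative, besides other scalings, no filter, a joint fit, a replicate block, each library left out and no fold threshold.

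Named genes are the 5 adhesion candidates with Myod1, Myog, Mymk and Mymx; the 10 largest changes per direction (adjusted p under 0.05, mean of at least 5 CPM, no overlap); up to 3 called members per direction and list with sole exceptions; and the 5 largest differences per direction and interaction (adjusted p under 0.05, mean of at least 5 CPM over the 12 libraries, no overlap of the dox libraries). Predicted genes were passed over. Other list members named were chosen after their values were seen. The 38 lists (767 entries, 6 symbols unmatched) and the comparison itself were chosen with earlier results of these data known.

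Residuals of same-numbered libraries correlated at 0.427, 0.291 and 0.464 in C2C12 iMcam and at 0.532, 0.118 and 0.515 between the vehicle libraries of the lines. The numbers were taken to pair the libraries there. In C2C12 iMcam each library was closest to its own number, but between the vehicle libraries of the lines those numbered 2 were not each other's closest match.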

Additional observations from a re-analysis of the deposited data

Results flagged for a closer look

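Dox effects that differed between C2C12 iCdh23 and another line by an interaction test (edgeR, Benjamini-Hochberg, over 2-fold) are listed here as differences of log2 fold changes, C2C12 iCdh23 minus the other line. Single genes are given where they are among the adhesion and myogenic genes chosen by name or among the 5 largest differences in a direction (average of 5 CPM or more over the 12 libraries compared, dox libraries not overlapping). Against C2C12 iMcam, 148 genes differed upward and 796 downward. Those above 0 were Uchl1, a ubiquitin hydrolase (2.8), Abat, the GABA transaminase (2.66), Myo7a (2.2), Nptx1 (2.0) and Hap1 (1.93). Those below 0 were Nmrk2 (-5.79), Arpp21 (-5.64), Col14a1 (-5.36), Csrp3 (-5.33), Phex, an endopeptidase of bone (-5.28), Myog (-4.18), Mymk (-3.65), Mymx (-3.58) and Cdh23 (-2.42). Another 7 named genes differed upward, among them Nfasc (5.56) and Cgn (3.73), which average under 5 CPM, and 66 downward. The Nfasc difference was 2.05 and not called without C2C12 iMcam vehicle replicate 1, and it lost its call at values between 5.09 and 5.66 with the replicate block and without C2C12 iCdh23 vehicle replicate 2 or 3 or any 1 dox library of either line. The Csrp3 difference lost its call without C2C12 iCdh23 dox replicate 2 (-4.97) or C2C12 iMcam dox replicate 3 (-4.63). Abat was also lower in vehicle-treated C2C12 iCdh23 than in vehicle-treated C2C12 iMcam, at 3.65 ± 1.21 against 17.6 ± 1.67 CPM (SD, n = 3 each). In the edgeR fit with the replicate block alone, Uchl1 was lower there too (-1.8, adjusted p = 0.0105). In that fit Col14a1 (1.57, adjusted p = 0.0103) and Csrp3 (1.29, adjusted p = 0.00164) were higher in vehicle-treated C2C12 iCdh23. With dox, Abat reached 41.1, 47.1 and 47.4 CPM in C2C12 iCdh23 and 33.6, 31.7 and 38 CPM in C2C12 iMcam. Phex was at 28.2, 21 and 6.07 CPM with vehicle and at 0.208, 0.162 and 0.25 CPM with dox in C2C12 iCdh23.

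Against C2C12 iMyoD1, 628 genes differed upward and 1794 downward. Those above 0 were Cyfip2 (5.12), Epas1 (3.57), Myo7a (3.55), Slc12a5 (3.54), Hap1 (3.28) and Mcam (2.07). Those below 0 were Arpp21 (-7.21), Cilp (-6.33), Nmrk2 (-6.26), Phex (-6.25), Csrp3 (-6.18), Myog (-5.75), Mymk (-5.41), Mymx (-4.95), Myod1 (-2.22), Cdh15 (-2.14) and Itga3 (-1.1). Myod1 is also the transgene of C2C12 iMyoD1, and whole-gene counts do not separate the transgene from the endogenous gene. Another 15 named genes differed upward, among them Hlf (4.78), which averages under 5 CPM and lost its call without C2C12 iMyoD1 vehicle replicate 2 (3.81), and 83 downward. The Itga3 difference lost its call without C2C12 iCdh23 vehicle replicate 1 (-0.89) and under scaling by totals alone (-0.93). For the 4 genes at the floor in dox-treated C2C12 iCdh23 or near it (Nmrk2, Arpp21, Csrp3 and Phex), the fitted difference depends on the prior count. What sets the lines apart was not tested.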

How the results depend on the processing

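The counts of 1854 higher and 2421 lower genes in C2C12 iCdh23 stayed within 1.5 times under DESeq2, RLE size factors, no low-count filter, a fit with the C2C12 iMcam libraries, a replicate block and each library left out (1781 to 2137 higher and 2410 to 2931 lower over all of these, 1797 to 2045 and 2448 to 2534 with a library left out). Scaling by totals alone gave 2977 higher genes, and the adjusted p without a fold threshold gave 4460 higher and 4611 lower. The replicate numbers were not shown to pair the C2C12 iCdh23 libraries (residual correlations 0.191, 0.0679 and 0.168, each library closest to its own number), and the replicate block gave 1947 higher and 2524 lower genes. With the replicate block, 2516 genes were called in C2C12 iMcam (2313 without it), and among the dox effects of named genes and their differences between lines it changed the call of the difference of Nfasc from C2C12 iMcam. Between the vehicle libraries of the lines the block added calls for 7 named genes higher in C2C12 iCdh23 (Csrp3, Mb, Lmod3, Art1, Clstn3, Col14a1 and Slc7a11) and for 8 lower (Cilp, Col8a2, Fmod, Cnn1, Ccn2, Sfrp2, Cxcl14 and Uchl1). The log2 fold change of Cdh23 lay between 0.19 and 0.65, with adjusted p between 0.00496 and 0.305.

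The 48 genes between the vehicle libraries of the lines were 163 with DESeq2, 99 without the filter, 261 with the replicate block and between 8 and 32 with a library left out. The 944 differences from C2C12 iMcam were between 615 and 1026 with a library left out. The small change of the lipase gene Lpl (0.11, not called) turned to -0.01 without vehicle replicate 1 and to -0.15 without dox replicate 3, in a range of -0.15 to 0.34 with a library left out. Of the dox effects of named genes under all alternatives, 1815 kept their direction and side of the threshold, 14 lost it, 3 gained it and 2 reversed. Of the differences between lines, 3283 kept it and 150 lost it. With the replicate block 8 ATF4 targets were called lower, against 13 without it. List counts moved by over 1.5 times in 40 of 912 cases and list medians by over the replicate spread in 36 of 468. The causes were not tested. Genes under a few counts per library, such as Ush1c or Elavl3, can be given only as bounds at this depth.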
